A study of Mus musculus with 33 samples.

Results

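Microglia from 9-month-old mice with a germline knockout of Irf8 (IRF8KO) were compared with microglia from 9-month-old wild-type mice (WT), 3 libraries against 3, out of 33 libraries in the series. Both groups had the C57BL/6 background, carried no 5xFAD transgene and received no treatment. The contrast used only these 6 libraries, and the 6 libraries of 5xFAD and 5xFAD/IRF8KO mice of the same age served to estimate the spread and, at the end, to test whether the effect differed there. Per the labels, cells of each brain were isolated without enzymes and sorted into TRIzol, and the cDNA was amplified before tagmentation. The allele removes Irf8 from every cell from the embryo on, so blood cells and microglial precursors lacked it as well, and the labels give neither the gate of the sort nor the exons removed. The labels do not say whether brains were pooled, so p-values measure the spread between these libraries. Genes were described in 2 classes set by WT alone. The first held 9363 of the 54146 gene identifiers, those with a mean of 5 CPM or more in WT (CPM is a count relative to library size, here with TMM scaling). It stands for RNA present in the WT sort. A gene of another cell type can pass this limit, as the red cell gene Hbb-bs did with a mean of 9.32 CPM. The second held 40599 identifiers with a summed count of 3 or less over the 3 WT libraries, and any RNA of that class in IRF8KO is RNA that the WT sort practically lacked. The remaining 4184 identifiers lay between both limits.

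IRF8 is a transcription factor of the myeloid lineage that binds DNA mostly together with a partner, such as PU.1 at composite Ets and IRF elements, or BATF3 in dendritic cells. In the bone marrow it favours monocytes and dendritic cells over granulocytes, and mice without it accumulate granulocytes. Microglia, the resident macrophages of the brain, express it throughout life, and it is known as one of the factors that keep their surveying, homeostatic gene set switched on.

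The libraries differed in more than genotype. Counts in genes were 5757466, 1673676 and 605376 in WT 1, 2 and 3 and between 7165054 and 8206354 in IRF8KO. Reads assigned to genes were 74.7% to 77.3% of each WT library and 48.6% to 53.4% of each IRF8KO library, and reads mapping to several places were 4.86% to 5.2% against 15.1% to 35.4%. Every library was labelled female, yet the summed level of the Y-linked genes Ddx3y, Eif2s3y, Kdm5d and Uty, in CPM without TMM scaling, was 307, 275 and 278 in WT and 4.63, 149 and 40.8 in IRF8KO. Xist, which marks an inactive X chromosome, stood at 0.174, 0 and 1.65 CPM in WT and at 48.6, 5.26 and 184 CPM in IRF8KO on the same scale. The WT libraries and IRF8KO 2 therefore went against their label, and IRF8KO 3 held Y-linked transcripts beside the highest Xist level. Genotype and sex were confounded in this contrast. The covariate fit given beside the counts of genes cannot separate them fully, because no IRF8KO library reached the Y-linked level of any WT library.

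Irf8 (chr8:120736358-120756694, plus strand) was at 681, 648 and 586 CPM in WT and at 141, 16.7 and 75.9 CPM in IRF8KO. All IRF8KO libraries lay below all WT libraries, and the log2 fold change was -3.04 (SE 0.54, adjusted p = 0.00152, edgeR's quasi-likelihood test with Benjamini-Hochberg adjustment over all 14604 genes tested). Counts cover all exons of the gene, so they do not show whether the reads left in IRF8KO came from the deleted part. Batf3 (chr1:191097847-191108945), the leucine zipper partner of IRF8, was at 21.5, 18 and 17 CPM in WT and had 0 counts in all 3 IRF8KO libraries, which made it at least 138-fold lower (adjusted p = 0.00051). That bound and the others below set a group without a count to 3 counts over its 3 libraries, which are 0.137 CPM in IRF8KO and 0.319 CPM in WT, and cover counting error only, because the reads carry no molecular identifiers. Of 110 tested genes within 5 Mb of Irf8, 30 were called (18 higher, 12 lower), a share of 27.3%, near the 28.3% of all genes tested.

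Over all genes tested, 4136 had an adjusted p under 0.05, which is 28.3%, with 2868 (19.6%) higher and 1268 (8.68%) lower in IRF8KO. In the class at 5 CPM or more in WT, all 9363 genes were tested and 22.1% were called. Of these, 1052 (11.2%) were higher and 1018 (10.9%) were lower, and the median log2 fold change of the class was -0.23. These shares are the background for the counts of each gene list below. The split shifted with the level in WT: among the 1451 genes at 100 CPM or more, 513 were called lower and 130 higher. The 95% interval of the log2 fold change lay wholly below -1 for 631 genes, wholly above 1 for 466 genes, and within -1 to 1 for 455 genes. When library sizes and scaling factors were taken from the genes of this class alone, the fold changes moved up by a median of 0.24 and the calls became 1353 higher and 860 lower, so that 61.1% of the calls were higher in place of 50.8%. With a score of the sex-linked transcripts as a covariate, 613 genes were called higher and 524 lower, and 2201 genes were called in all. The number of calls over all genes was 2266 without WT 1, 2579 without WT 2 and 2727 without WT 3, and it stayed between 3689 and 4126 without 1 of the IRF8KO libraries.

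**Figure D1:**
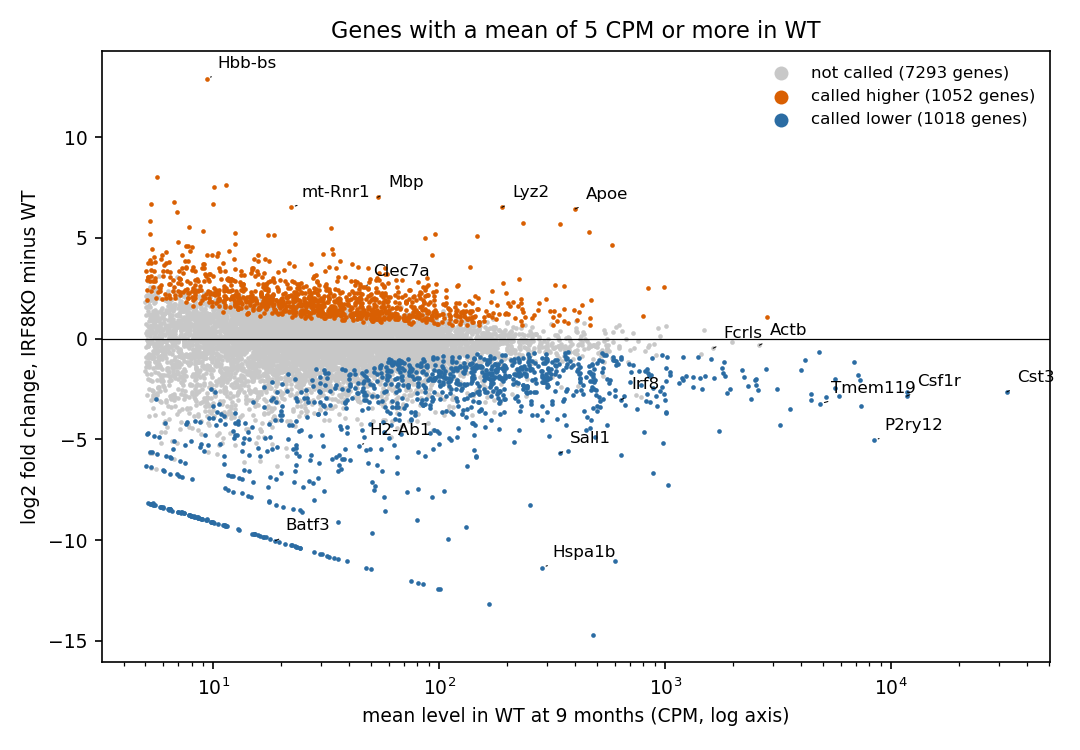
Log2 fold change (IRF8KO minus WT) against the mean WT level in CPM (log axis) for the 9363 genes at 5 CPM or more in WT; each point is a gene, colored by call. The 513 lower calls outnumber the 130 higher calls at 100 CPM or more, and the slanting line of points at the bottom holds genes without a count in IRF8KO, whose fitted value is no bound.

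The homeostatic gene set, the receptors, enzymes and secreted proteins that mark surveying microglia, fell almost as a whole. The list held 34 genes, every one of them above the WT limit of the class; 29 fell, none rose, and 5 were not called, with a median log2 fold change of -2.89 against -0.23 over the class. P2ry12 (chr3:59216272-59262871), the ADP receptor that steers microglial processes, was at 9190, 9620 and 6460 CPM in WT and at 246, 147 and 368 CPM in IRF8KO (log2 fold change -5.05, SE 0.38, adjusted p = 4.07e-06). Tmem119, a membrane protein used to tell microglia from other macrophages, was at 5160, 4810 and 4600 CPM against 678, 222 and 655 CPM (-3.23, SE 0.38). The groups were far apart for both genes. Cx3cr1, the fractalkine receptor, was at 6110, 4780 and 4580 CPM against 1100, 396 and 570 CPM, and Gpr34, a lysophosphatidylserine receptor, was at 3890, 3900 and 2840 CPM against 397, 182 and 353 CPM. IRF8KO 2 was the lowest library for these 4 genes and for 19 of the 29 genes that fell, and IRF8KO 1 and 3 were the lowest for 6 and 4 of them. Tmem119, Cx3cr1 and Gpr34 were picked for naming after their values were seen.

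Cst3, which encodes the protease inhibitor cystatin C, was at 34700, 37700 and 25200 CPM in WT and at 6190, 4000 and 5330 CPM in IRF8KO (log2 fold change -2.65, SE 0.29). Csf1r, the growth factor receptor on which microglia depend, was at 13900, 8910 and 12200 CPM against 2480, 859 and 1470 CPM (-2.86, SE 0.40). None of these IRF8KO libraries reached a WT library. Adgrg1, an adhesion receptor, fell further, from 976, 715 and 960 CPM to 13.5, 0 and 12.2 CPM. Siglech, a lectin of microglia and plasmacytoid dendritic cells, fell from 2610, 2480 and 2090 CPM to 341, 221 and 340 CPM. Fcrls, an Fc receptor-like protein of microglia, did not pass the test (1810, 1800 and 1290 CPM against 1320, 1040 and 1140 CPM, log2 fold change -0.48, SE 0.22, adjusted p = 0.124).

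Of the 10 microglial markers used to check the label, 9 were over 100 CPM in every IRF8KO library, and Sall1 was not. In bulk RNA, fewer microglia in the sort and less RNA per microglial cell cannot be told apart.

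**Figure D2:**
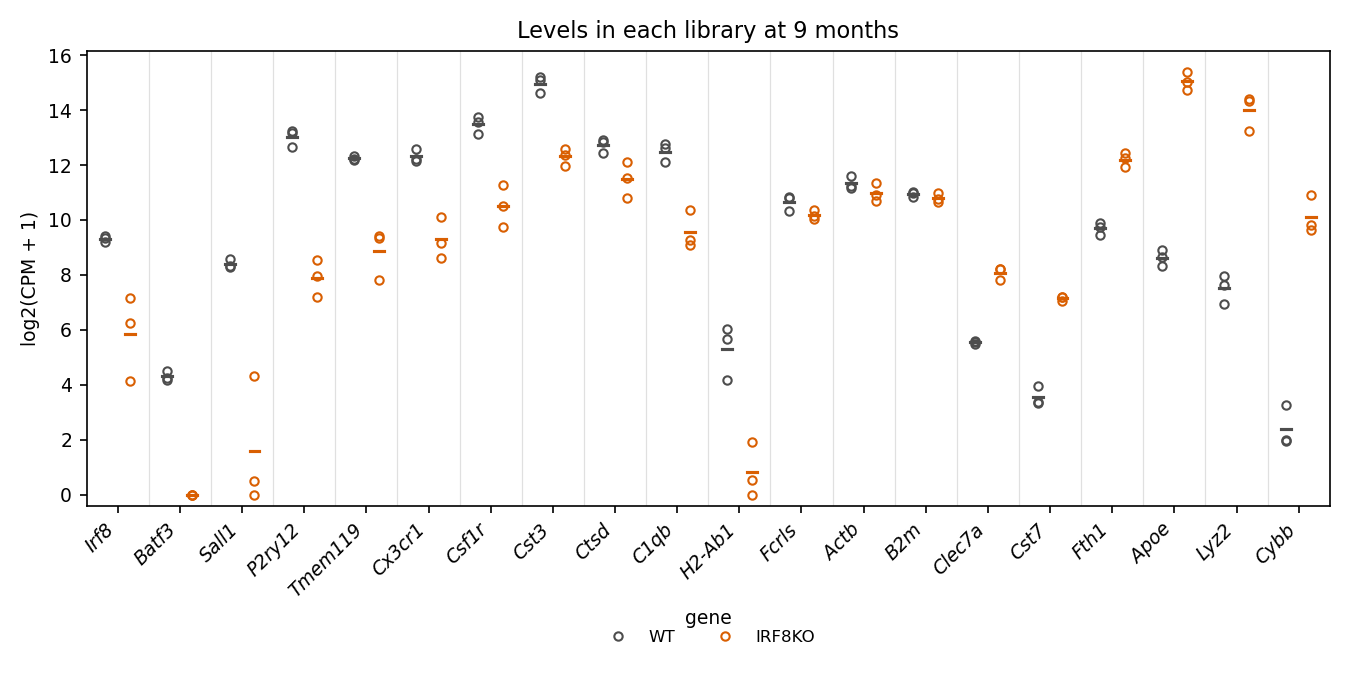
Levels of 20 genes as log2(CPM + 1) in each WT and IRF8KO library (circles), with the mean of the 3 libraries as a bar. The groups are apart for the factors, homeostatic genes and Apoe, Lyz2 and Cybb, while Fcrls, Actb and B2m overlap.

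Among transcription factors, 24 of 28 listed genes were at 5 CPM or more in WT, and 10 fell, 1 rose and 13 were not called, with 6 lower with the sex score and 2 higher without IRF8KO 3. Sall1 (chr8:89027235-89044162), a zinc finger factor that maintains microglial identity, was at 385, 315 and 322 CPM in WT and at 0.393, 0 and 19.2 CPM in IRF8KO (log2 fold change -5.69, SE 1.35, adjusted p = 0.0109), a call that was lost with the sex score as a covariate. Irf5, a related interferon regulatory factor, was at 548, 405 and 481 CPM against 85.3, 16.7 and 28.5 CPM (-3.46, SE 0.56). Both were low in every IRF8KO library, and IRF8KO 2 had the lowest level of each. Mef2a, a MADS-box factor of microglia, fell from 603, 423 and 478 CPM to 244, 190 and 210 CPM. The related Mef2c was at 573, 480 and 480 CPM against 208, 250 and 283 CPM, and its adjusted p of 0.0474 passed the threshold only narrowly. Its call was lost without WT 1, WT 2, WT 3, IRF8KO 1 or IRF8KO 2, with log2 fold changes from -1.19 to -1.06 in those fits. Id2, an inhibitor of basic helix-loop-helix factors, was the member that rose, from 62.3, 60.7 and 37.7 CPM to 214, 355 and 236 CPM (2.31, SE 0.33). Spi1, which encodes PU.1 and was named after its values were seen, had overlapping groups (310, 294 and 299 CPM against 314, 232 and 149 CPM, -0.38, SE 0.29, adjusted p = 0.366).

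The 12 largest falls among named genes of the class were mostly losses to 0. Spint1, a protease inhibitor, went from 120, 127 and 248 CPM in WT to 0 counts in all 3 IRF8KO libraries and was at least 1210-fold lower. The genes P3h2, a collagen prolyl hydroxylase (at least 737-fold), Chst7, a sulfotransferase (at least 726-fold), and Mmp2, a gelatinase (at least 618-fold), had no count in IRF8KO either. The same held for the TGF-beta co-receptor endoglin, Eng (at least 586-fold), the profilin sensor Tlr12 (at least 545-fold), the receptor gene P2ry10b (at least 366-fold), the adhesion gene Nectin2 (at least 347-fold) and the noncoding Arhgap27os3 (at least 286-fold). Upk1b, a tetraspanin, was at 573, 828 and 405 CPM in WT and at 0, 0 and 0.769 CPM in IRF8KO. Hspa1b, an inducible heat shock protein, was at 567, 157 and 130 CPM in WT and had counts in 1 IRF8KO library only, at 0.256 CPM. WT 1 had the highest level of it. In all, 100 genes of the class had 0 counts in the 3 IRF8KO libraries, of which 99 were called. Exons of P3h2, Eng and Nectin2 overlap another gene (Gm4524, Fpgs and Gm20512), and Hspa1b has a near-identical neighbor, so the counts of these genes are uncertain. The same holds for other genes named here whose exons overlap a neighbor, among them P2ry12 (Med12l), Csf1r (Hmgxb3), Cx3cr1 (Gm33858), Irf5 (Tnpo3), Mef2a (Lysmd4), H2-DMa (Brd2), Ctsd (Gm49369), Ctsb (Fdft1), Junb (Prdx2), Tlr3 (Gm45542) and Tuba4a (Stk16), because the counts ignore strand. The calls on Mmp2, P2ry10b and Nectin2 were lost with the sex score as a covariate, and those on Spint1 and Hspa1b with limma voom.

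Genes of antigen presentation by MHC class II fell in most cases, while most class I genes were not called. Of 12 class II genes at 5 CPM or more in WT, 8 fell and none rose (median log2 fold change -3.27). H2-DMa, a peptide exchange chaperone subunit, was at 302, 332 and 176 CPM in WT and at 14.8, 10.4 and 33.8 CPM in IRF8KO (-3.78, SE 0.44, adjusted p = 7.11e-05). Its partner H2-DMb1 was at 175, 209 and 157 CPM against 52.7, 5.82 and 21.5 CPM (-2.76, SE 0.60). H2-Ab1, a classical class II chain named after its values were seen, was at 17.2, 50 and 64.4 CPM against 2.75, 0.46 and 0 CPM. No IRF8KO library reached the WT range for these genes. H2-Aa, its partner chain, was at 5.53, 11.2 and 18.2 CPM against 0, 0 and 0.128 CPM, a ratio of 173 between the pooled counts (95% counting interval 30.1 to 6920). The costimulator Cd86 fell from 498, 504 and 427 CPM to 115, 182 and 29.7 CPM. H2-Ob was high in WT 3 (71.1, 65.1 and 263 CPM) and near 0 in IRF8KO (0, 0 and 4.87 CPM). The call on H2-Ob was lost without WT 1, WT 2, WT 3, IRF8KO 1 or IRF8KO 2 (log2 fold changes -6.71 to -5.43). The calls on H2-Ab1 and H2-Aa were lost with limma voom, and that on Cd86 with the sex score. Between 4 and 9 class II genes fell under the alternatives, the lowest number with the sex score.

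Of 20 class I and peptide loading genes, 4 fell and 16 were not called, where 10.9% of all genes at 5 CPM or more in WT were lower. The number lower was 2 without WT 1 or WT 3, 7 without IRF8KO 1 and 1 with the sex score. H2-D1, a classical class I chain, was at 1170, 855 and 991 CPM in WT and at 2550, 1030 and 1060 CPM in IRF8KO, with only IRF8KO 1 apart (0.62, SE 0.39, adjusted p = 0.256, and -0.06 without IRF8KO 1). B2m, the shared light chain, was at 2040, 2080 and 1810 CPM against 2010, 1720 and 1610 CPM, and its 95% interval lay within -1 to 1. H2-M3, a nonclassical chain that presents formylated peptides, fell from 97.5, 93.2 and 130 CPM to 29, 26.5 and 27.2 CPM. Calr, the chaperone calreticulin, fell from 787, 744 and 552 CPM to 330, 351 and 203 CPM, a call lost with the sex score. H2-Q6 was lower (17.8, 8.74 and 21.9 CPM against 0.787, 0 and 0 CPM), but its reads can be shared with other H2-Q genes, and its call was lost without WT 1, WT 3, IRF8KO 2 or IRF8KO 3 (-5.88 to -5.38).

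Lysosomal genes fell in most cases. Of 40 listed enzymes and membrane proteins, all at 5 CPM or more in WT, 26 fell, 2 rose and 12 were not called (median -1.48). Ctss, the cysteine protease cathepsin S, was at 7320, 8010 and 6500 CPM in WT and at 2050, 1560 and 1560 CPM in IRF8KO (-2.08, SE 0.22, adjusted p = 4.06e-05). Lgmn, the asparaginyl protease legumain, was at 4530, 4760 and 3990 CPM against 841, 501 and 617 CPM (-2.76, SE 0.30). Ctsh, cathepsin H, was at 1060, 1140 and 806 CPM against 122, 195 and 48.8 CPM (-3.04, SE 0.40). WT and IRF8KO did not overlap for any of them. Laptm5, a lysosomal membrane protein of blood cells, fell from 5930, 6060 and 4990 CPM to 2100, 1220 and 960 CPM. The aspartyl protease gene Ctsd fell from 7400, 7640 and 5590 CPM to 4470, 1790 and 2950 CPM, and Ctsb, cathepsin B, from 4470, 4290 and 3660 CPM to 2700, 1500 and 1660 CPM. The members that rose were the tetraspanin Cd63 (247, 276 and 165 CPM to 816, 675 and 810 CPM) and Atp6v1a, a subunit of the proton pump (78.6, 64.1 and 85.1 CPM to 174, 339 and 273 CPM). The calls on Ctsd and Ctsb were lost when only the 6 libraries were fitted, with 21 members of the list then lower. That on Ctsb was also lost with the sex score.

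**Figure D3:**
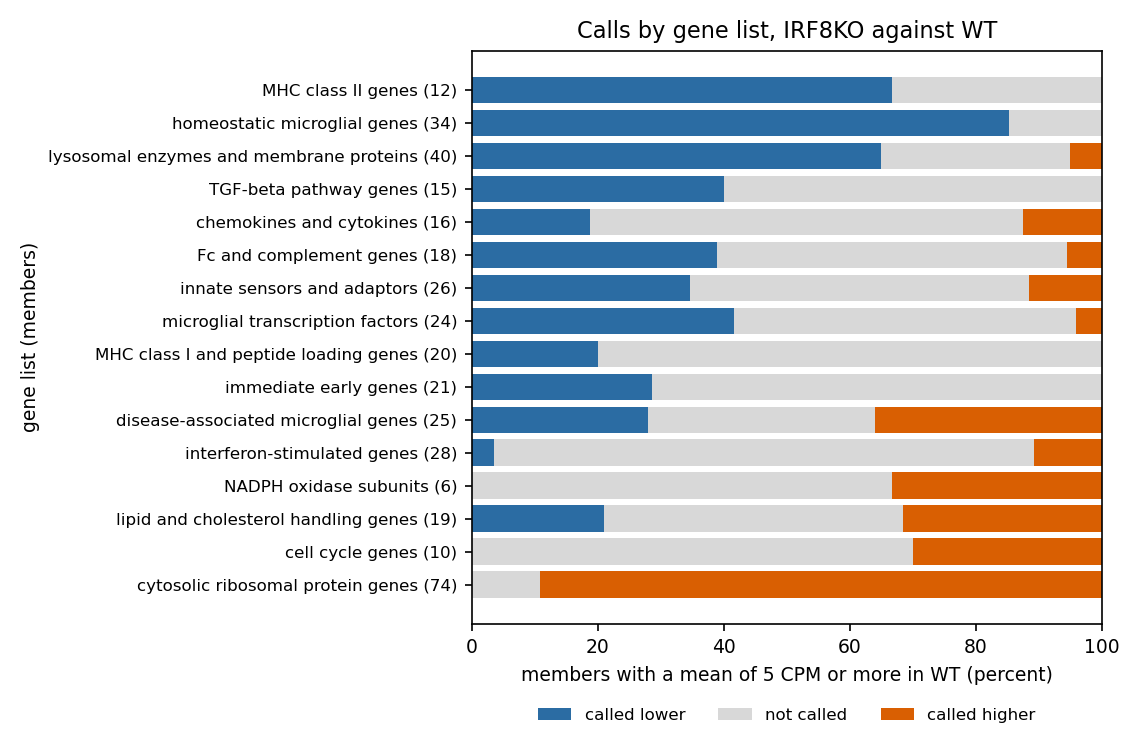
Percent of the members of each of 16 gene lists, among those at 5 CPM or more in WT (number in brackets), that were called lower, not called or called higher. Of the homeostatic list 29 of 34 fell, and of the cytosolic ribosomal protein genes 66 of 74 rose.

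Of the genes that mark disease-associated microglia, 25 were at 5 CPM or more in WT, and 9 rose, 7 fell and 9 were not called. Their median of 0.30 was 0.04 without IRF8KO 1 and 0.12 without WT 1, and 4 fell with the sex score or when only the 6 libraries were fitted. The whole list of 33 had 16 genes called higher and 7 lower, but a member with few WT counts could enter the test only by being higher in another group. Apoe (chr7:19696109-19699188), the lipid carrier of the brain, was at 399, 477 and 322 CPM in WT and at 43000, 27200 and 33100 CPM in IRF8KO (6.43, SE 0.41, adjusted p = 1.43e-06). Lyz2, the lysozyme of macrophages and neutrophils, was at 199, 246 and 122 CPM against 21700, 20600 and 9740 CPM (6.51, SE 0.48). Fth1, the ferritin heavy chain, was at 856, 957 and 695 CPM against 5500, 4890 and 3880 CPM (2.51, SE 0.22). Every IRF8KO library was above every WT library for these 3 genes. Cst7, cystatin F, rose from 9.06, 9.23 and 14.6 CPM to 132, 146 and 146 CPM, and Clec7a, the beta-glucan receptor dectin-1, from 44.2, 46.1 and 47.4 CPM to 297, 225 and 296 CPM. Trem2, the lipid-sensing receptor required for that state, fell from 1270, 1400 and 889 CPM to 455, 171 and 278 CPM (-1.98, SE 0.40). Cd68, a lysosomal glycoprotein, fell from 1250, 1370 and 982 CPM to 305, 180 and 394 CPM (-2.04, SE 0.28). Tyrobp, the signalling adaptor of TREM2, had overlapping groups (1460, 1740 and 1230 CPM against 2830, 1670 and 1460 CPM, 0.43, SE 0.29, adjusted p = 0.308), and its sign turned to -0.04 without IRF8KO 1. Fth1 and Cst7 were named after their values were seen. Apoe, Lyz2, Fth1, Cst7 and Clec7a are also transcribed by other cells, among them astrocytes, monocytes and neutrophils, and the part of such cells in these rises was not tested.

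Lipid genes at 5 CPM or more in WT numbered 19, of which 6 rose and 4 fell, with 1 lower without WT 1 and 2 lower without WT 2 or WT 3. Lrp1, the large lipoprotein receptor, fell from 304, 309 and 382 CPM in WT to 8.13, 27.4 and 27.9 CPM in IRF8KO (-3.97, SE 0.60). Mylip, which targets lipoprotein receptors for degradation, was lower (213, 133 and 162 CPM against 73.4, 9.19 and 28.2 CPM), a call lost without WT 1 (-2.13). Srebf1, a sterol-regulated factor, was lower (56.8, 44.7 and 69.3 CPM against 3.41, 3.83 and 19.6 CPM), a call lost without WT 1, WT 2, WT 3, IRF8KO 1 or IRF8KO 2 (-2.82 to -2.38). Plin3, a lipid droplet coat protein, was higher (19.6, 12.1 and 0 CPM against 88, 38.3 and 57.4 CPM), a call lost without WT 2, IRF8KO 1 or IRF8KO 3 (1.95 to 2.44). The list also held Ldhb, which encodes a lactate dehydrogenase and is no lipid gene, and it was not called (552, 619 and 479 CPM against 427, 403 and 372 CPM).

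Complement and Fc genes fell more often than they rose, with 7 of 18 lower and 1 higher. The 3 chains of C1q, the recognition molecule of the classical pathway, fell together. C1qb went from 6220, 7030 and 4370 CPM in WT to 1300, 609 and 541 CPM in IRF8KO (-2.85, SE 0.37, adjusted p = 0.000151). C1qc went from 6050, 6910 and 4010 CPM to 1370, 873 and 852 CPM, and C1qa from 2480, 2890 and 2170 CPM to 828, 484 and 531 CPM. Fcgr1, the high-affinity IgG receptor, fell from 368, 396 and 309 CPM to 36.6, 10.1 and 31.4 CPM (-3.78, SE 0.54). The low-affinity receptor gene Fcgr3 was lower (1910, 2090 and 1460 CPM against 1340, 573 and 543 CPM), a call lost without WT 1, WT 2, IRF8KO 2 or IRF8KO 3 (-1.25 to -1.04). The call on Fcgr3 was also lost with the sex score, with only the 6 libraries and with scaling over the class. The anaphylatoxin receptor gene C5ar1, which neutrophils also express, rose from 185, 236 and 184 CPM to 1060, 616 and 382 CPM (1.77, SE 0.37). Fcer1g, the shared signalling chain, was at 921, 1070 and 784 CPM against 1490, 1140 and 1290 CPM, and its interval lay within -1 to 1 (adjusted p = 0.0968).

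Innate sensors showed 9 lower and 3 higher of 26, where 10.9% of the class was lower and 11.2% higher, so the rises were near the class share. The number lower was 5 without WT 2 and 4 with the sex score. Ly86, the partner of the Toll-like protein CD180, was at 1110, 1200 and 767 CPM in WT and at 9.05, 0.46 and 10.4 CPM in IRF8KO (-7.26, SE 0.81, adjusted p = 5.21e-05). Tlr3, the sensor of double-stranded RNA, was at 114, 89.4 and 112 CPM against 0, 0.153 and 1.41 CPM (-7.58, SE 0.92). Tmem173, which encodes STING, was at 1050, 1110 and 864 CPM against 101, 82.1 and 59.2 CPM (-3.64, SE 0.31). All 3 were nearly lost or far below WT in each IRF8KO library. Cd14, the endotoxin co-receptor, was lower (542, 564 and 502 CPM against 336, 346 and 240 CPM). Its call was lost without WT 2 (-0.77) and with the sex score. The same held with only the 6 libraries, with all 33 libraries and with scaling over the class. Tlr13 was lower (348, 260 and 334 CPM against 137, 212 and 72 CPM), a call lost without WT 1, WT 2, WT 3 or IRF8KO 3 (-1.29 to -0.96). The call on Tlr13 was also lost with the sex score and with only the 6 libraries. Clec4a2, a C-type lectin of myeloid cells, rose from 105, 86.4 and 68.1 CPM to 235, 222 and 232 CPM.

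Interferon-stimulated genes at 5 CPM or more in WT mostly did not pass the test: 3 rose, 1 fell and 24 of 28 were not called, where 11.2% of the class was higher and 10.9% lower. Over the whole list of 44 genes, 6 were called higher and 2 lower, where the same holds as for the disease-associated list. The median of the 28 was 0.32. That median was -0.08 without IRF8KO 1, -0.01 without IRF8KO 2, 0.14 without IRF8KO 3, 0.16 without WT 1 and -0.49 with limma voom, and the genes that fell numbered 3 without IRF8KO 1 and 4 without IRF8KO 3. Ifitm3, a membrane protein that blocks viral fusion, rose from 14.6, 8.26 and 24.3 CPM to 262, 351 and 186 CPM (4.15, SE 0.39). Slfn2, a schlafen family member, rose from 39.5, 38.4 and 53.5 CPM to 734, 460 and 342 CPM (3.56, SE 0.42). Mx2, an interferon-induced GTPase, was at 7.83, 8.74 and 7.29 CPM in WT and had no count in IRF8KO, at least 58.2-fold lower. Slfn8 (84, 58.3 and 58.4 CPM against 1.97, 0 and 16.5 CPM) and Trim30a (89.7, 87.9 and 64.4 CPM against 38.8, 15.6 and 52.9 CPM) did not overlap between groups but were not called (adjusted p = 0.0922 and 0.0856). In the class as a whole 46.8% of genes did not overlap between the groups.

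Promoters were searched for the elements IRF8 is known to bind, on both strands, in the RefSeq table of 250 bases before to 50 after each gene's start (GRCm38.p6). The composite Ets and IRF element was written GGAANNGAAA, the interferon-stimulated response element GAAANNGAAA and the reverse composite element GAAANNNGGAA; they were found in 2.72%, 3.44% and 2.14% of 32851 promoters. Of the 12 largest falls, 8 had a promoter in the table, and 0, 0 and 1 of them held the elements in that order. In the class at 5 CPM or more in WT, the first element was present in 24 of 799 genes that fell (3%), 20 of 831 that rose (2.41%) and 183 of 5848 that were not called (3.13%). Named genes on the chromosomes of Irf8 and Csf1r were left out of the list from which promoters were printed. Among the other named genes of the class, Cd68 fell and Clec7a and Slfn2 rose with a match. Their promoters are printed because they place a match to the same element beside opposite directions. They were picked after the values were seen, and they are no count of all named genes with a match. The sequences run 5′ to 3′ on the gene's strand and the match, which reads on the opposite strand, is in capitals. It begins 23 bases after the start in Cd68 (chr11:69666121-69666420, minus strand), and at -66 in Clec7a (chr6:129472730-129473029, minus strand) and -59 in Slfn2 (chr11:83064862-83065161, plus strand). A match is a description of these letters and shows no binding.
Cd68: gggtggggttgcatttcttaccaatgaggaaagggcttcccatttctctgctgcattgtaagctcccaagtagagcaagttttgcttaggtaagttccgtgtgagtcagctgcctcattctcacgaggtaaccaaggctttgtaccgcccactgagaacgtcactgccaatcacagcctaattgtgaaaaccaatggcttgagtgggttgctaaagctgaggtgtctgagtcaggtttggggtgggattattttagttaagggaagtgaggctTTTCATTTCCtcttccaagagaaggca
Clec7a: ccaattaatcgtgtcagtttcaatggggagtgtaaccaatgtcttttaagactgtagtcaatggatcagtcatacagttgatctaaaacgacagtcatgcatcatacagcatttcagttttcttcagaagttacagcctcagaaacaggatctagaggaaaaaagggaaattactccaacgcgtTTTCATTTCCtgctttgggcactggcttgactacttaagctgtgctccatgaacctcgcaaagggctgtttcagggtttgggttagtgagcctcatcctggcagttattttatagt
Slfn2: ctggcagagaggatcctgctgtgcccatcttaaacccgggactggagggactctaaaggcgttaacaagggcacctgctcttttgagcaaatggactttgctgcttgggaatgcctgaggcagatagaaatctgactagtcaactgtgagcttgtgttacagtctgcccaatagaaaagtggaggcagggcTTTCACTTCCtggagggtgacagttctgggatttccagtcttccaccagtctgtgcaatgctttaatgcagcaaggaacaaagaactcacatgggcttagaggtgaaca

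Tgfb1, the ligand that maintains the microglial state, was at 166, 145 and 167 CPM in WT and at 11.9, 9.5 and 15.6 CPM in IRF8KO (-3.68, SE 0.50, adjusted p = 0.0002). Its receptor genes Tgfbr1 (1870, 1440 and 1600 CPM to 288, 493 and 468 CPM) and Tgfbr2 (627, 336 and 558 CPM to 64.1, 48.3 and 88.1 CPM) also fell. Of 15 genes of that pathway, 6 fell and none rose, with a median of -1.30 that was -2.18 without IRF8KO 3. Pmepa1, a feedback inhibitor, was lower (373, 404 and 311 CPM against 212, 94.8 and 238 CPM), a call lost without WT 1, WT 2, WT 3 or IRF8KO 2 (-1.19 to -0.81). Of 16 chemokines and cytokines, Tgfb1 among them, 3 fell and 2 rose, numbers near the 10.9% and 11.2% of the class, and 1 rose without WT 1, WT 2, WT 3 or IRF8KO 1. The chemokine genes Ccl12 (72.9, 118 and 86.3 CPM to 15.2, 11.6 and 10.4 CPM) and Ccl9 (70.3, 86.9 and 77.8 CPM to 4.33, 0 and 12.6 CPM) fell, but the call on Ccl12 was lost with the sex score and with limma voom, and that on Ccl9 when only the 6 libraries were fitted. Mif, a constitutively made cytokine, rose from 22, 32 and 25.5 CPM to 136, 161 and 119 CPM (2.39, SE 0.37). Ccl6 was higher (170, 223 and 244 CPM against 1350, 518 and 390 CPM), a call lost without WT 1, WT 2, WT 3 or IRF8KO 1 (0.97 to 1.86). Il1a was at 113, 135 and 120 CPM against 19.5, 47.3 and 16.7 CPM and was not called (adjusted p = 0.173).

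The genes of the NADPH oxidase, which makes superoxide in phagocytes, showed 2 rises and no fall among 6 at 5 CPM or more in WT, with a median of 0.40 that was -0.03 without IRF8KO 1 and 0.26 without WT 3. Rac2, its blood cell GTPase, rose from 192, 212 and 170 CPM in WT to 1650, 1350 and 871 CPM in IRF8KO, and Ncf4 rose from 104, 129 and 97.3 CPM to 340, 349 and 215 CPM. Cyba was not called (538, 571 and 502 CPM against 902, 706 and 515 CPM, adjusted p = 0.225). Cybb, the catalytic subunit, lay just under the limit of the class in WT and rose from 2.92, 2.91 and 8.51 CPM to 790, 1920 and 912 CPM (8.25, SE 0.66), a gene named after its values were seen. The summed share of the 7 listed subunits was 0.177% to 0.192% of counts in WT and 0.335% to 0.454% in IRF8KO. Neutrophil genes, given further on, were also higher in IRF8KO, and their part in these rises was not tested.

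Immediate early and heat shock genes, which respond to handling of tissue, fell in 6 of 21 cases and rose in none, with 1 higher without IRF8KO 1 or IRF8KO 3. Jun was at 734, 281 and 334 CPM in WT and at 55.5, 11.6 and 25.1 CPM in IRF8KO (-3.87, SE 0.56, adjusted p = 0.000342), and its exons overlap the antisense gene Junos. Junb was lower (643, 386 and 270 CPM against 96.5, 24.5 and 140 CPM), and so was Hspa1a (144, 25.7 and 34 CPM against 2.49, 4.14 and 0.897 CPM). Both calls were lost without WT 1, the library highest in each (-2.03 for Junb and -3.69 for Hspa1a). Both were also lost with the sex score, and that on Hspa1a with limma voom. WT 1 held 0.576% of its counts in the list, against 0.324% and 0.291% in WT 2 and 3 and 0.144% to 0.21% in IRF8KO.

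Ribosomal and mitochondrially encoded genes rose nearly as blocks. Of 74 cytosolic ribosomal protein genes, 66 rose, none fell and 8 were not called (median 1.62), and 41 rose without WT 1 and 44 without WT 3. Rpl39 went from 3.68, 6.8 and 4.86 CPM in WT to 41.9, 42.4 and 44.1 CPM in IRF8KO (3.07, SE 0.51), and Rpl38 from 11.5, 13.6 and 9.73 CPM to 88.6, 75.5 and 98.6 CPM (2.90, SE 0.41). Among the most abundant members, Rps3 (139, 141 and 111 CPM against 343, 199 and 278 CPM) and Rplp0 (97.8, 100 and 92.4 CPM against 397, 167 and 157 CPM) were higher. The calls on Rps3 (0.75 to 0.99) and Rplp0 (0.62 to 1.19) were lost without WT 1, WT 3 or IRF8KO 1. Both were also lost with the sex score, and that on Rps3 with limma voom. Reads of ribosomal genes can be shared with pseudogenes, which makes single members uncertain. All 9 mitochondrially encoded genes at 5 CPM or more in WT rose, with log2 fold changes from 4.62 to 6.51. All 37 mitochondrially encoded genes together took 0.228%, 0.295% and 0.213% of counts in WT and 7.64%, 7.02% and 6.63% in IRF8KO. The ribosomal gene mt-Rnr1 was at 19.3, 23.8 and 23.1 CPM against 1830, 2330 and 1840 CPM. The share of reads in genes was lower in the same IRF8KO libraries, and its part in these rises was not tested.

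The 12 largest rises by the naming rule included Apoe, Lyz2 and mt-Rnr1 and 9 further genes, several of them known from red cells, oligodendrocytes or astrocytes. Hbb-bs, a beta globin of red cells, was at 0, 7.28 and 20.7 CPM in WT and at 14200, 109000 and 34100 CPM in IRF8KO (12.90, SE 1.69). Bpgm, a red cell enzyme of oxygen release, was at 10.4, 14.1 and 9.73 CPM against 462, 5100 and 1280 CPM (7.63, SE 0.93). IRF8KO 2 was highest and IRF8KO 1 lowest for both. Mbp, myelin basic protein of oligodendrocytes, rose from 51.9, 54.4 and 53.5 CPM to 9200, 7280 and 4170 CPM. Aldoc, an aldolase of astrocytes, rose from 7.37, 10.7 and 12.2 CPM to 2280, 1720 and 1260 CPM. Cpe, a neuropeptide-processing enzyme (8.02, SE 0.59), Gpm6b, a neural membrane protein (6.79, SE 0.44), Tuba4a, a tubulin (6.66, SE 0.42), Ndrg2, a glial protein (6.66, SE 0.37), and Gstm1, a glutathione transferase (6.27, SE 0.48), rose with no overlap between groups.

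Cell cycle genes were mostly below the limit of the class in WT. Of the 10 at 5 CPM or more, 3 rose and none fell, with a median of 1.6. Without WT 1 or WT 2, or with the sex score, only 1 rose, and without IRF8KO 1, where the median was -0.20, 1 rose and 1 fell. Stmn1, a microtubule regulator of dividing cells, rose from 8.44, 4.86 and 2.43 CPM in WT to 176, 235 and 229 CPM in IRF8KO (5.19, SE 0.50). Mcm5, a replication helicase subunit, was higher (15.2, 15.1 and 18.2 CPM against 146, 55.5 and 36.7 CPM), a call lost without WT 1, WT 2 or IRF8KO 1 (1.40 to 2.25). Rrm1, a subunit of ribonucleotide reductase, was higher (44.7, 37.4 and 28 CPM against 182, 96.4 and 85.8 CPM), a call lost without WT 1, WT 2, WT 3 or IRF8KO 1 (1.18 to 1.75). The calls on Mcm5 and Rrm1 were also lost with the sex score. Over the whole list of 36 genes, 25 were called higher and none lower, and 26 of the 36 lay below the limit, where the same holds as for the disease-associated list. The list took 0.0308% to 0.0426% of counts in WT and 0.251% to 0.312% in IRF8KO.

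Some abundant genes had a 95% interval within -1 to 1. Actb, cytoskeletal actin, was at 2400, 3140 and 2280 CPM in WT and at 2600, 1940 and 1660 CPM in IRF8KO (-0.33, SE 0.28). Cdc42, a GTPase of cell shape, was at 1040, 1060 and 739 CPM against 1220, 1040 and 823 CPM (0.12, SE 0.22). Hspa5, a chaperone of the endoplasmic reticulum, was at 1050, 889 and 723 CPM against 553, 1100 and 541 CPM (-0.28, SE 0.33). The groups overlapped for all 3, and the sign of Cdc42 turned in some fits. Spread was larger in IRF8KO: the median coefficient of variation of genes at 20 CPM or more in WT was 16.5% in WT and 48.5% in IRF8KO.

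RNA that the WT sort practically lacked made up a sizeable part of the IRF8KO libraries. Genes with a summed WT count of 3 or less took 0.0784%, 0.096% and 0.151% of counts in WT and 14.7%, 15.9% and 13.8% in IRF8KO. The genes at 5 CPM or more in WT took 99.1%, 99.1% and 99% of counts in WT and 79.4%, 72% and 77.4% in IRF8KO. Of the 40599 identifiers, 9552 had a count in IRF8KO, 2485 had a count in all 3 IRF8KO libraries, 1627 had a mean of 5 CPM or more there and 99 had 100 CPM or more. A gene with almost no count in WT can enter the test only by being higher in another group, so 59.5% of the 2248 tested were called and all of these were higher, which carries no information about the class. Around the limits, 144 genes with a WT mean of 5 to 5.5 CPM had a median of 6.35 CPM in IRF8KO and 157 genes at 4.5 to 5 CPM had 5.36 CPM. Genes with a summed WT count of 3 (734 genes) and 4 (471 genes) had medians of 0.256 and 0.422 CPM in IRF8KO.

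The 15 genes of that class with the highest level in their lowest IRF8KO library included many known from neutrophils and their precursors. Ngp (chr9:110419747-110423012), a granule protein of immature neutrophils, had no count in WT and stood at 23000, 36600 and 15400 CPM in IRF8KO, at least 78300-fold higher. S100a8 and S100a9, the subunits of calprotectin, were at 22500, 29900 and 18200 CPM and at 16600, 20500 and 10900 CPM in IRF8KO, with at most 2.43 CPM in a WT library. Chil3, a chitinase-like protein of monocytes and neutrophil precursors, had no count in WT and 5010, 18100 and 8770 CPM in IRF8KO. All 3 IRF8KO libraries held these transcripts at high level, with IRF8KO 2 highest. The secondary and later granule genes Ltf (at least 24300-fold), Camp (at least 20100-fold), Lcn2 (at least 8840-fold), Mmp8 (at least 7920-fold) and Cd177 (at least 5100-fold) had no count in WT. Anxa1 (at least 8670-fold), Wfdc21 (at least 2620-fold) and Serpinb1a (at least 2030-fold) had none either. Retnlg, Hp and Mmp9 had 1 count each in WT and ratios between pooled counts of 28100 (95% counting interval 5050 to 1110000), 12000 (2150 to 474000) and 7610 (1370 to 301000). The primary granule genes Elane (2040, 797 and 318 CPM), Mpo (1530, 60.4 and 5.77 CPM) and Prtn3 (390, 146 and 68.7 CPM) were highest in IRF8KO 1, and the call on Mpo was lost with the sex score as a covariate.

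As shares of counts, secondary granule genes took 4.44%, 4.98% and 3.15% of the IRF8KO libraries and mature neutrophil genes 4.45%, 4.27% and 3.49%, against at most 0.000119% and 0.0819% in WT. Of the mature neutrophil list, only Csf3r lay at 5 CPM or more in WT. Its means were 623 CPM in WT and 455 CPM in IRF8KO (log2 fold change -0.46), and it was not called. Red cell genes took 2.44%, 16% and 6.77% in IRF8KO and at most 0.00529% in WT, with Hba-a1 and Hba-a2, near-identical alpha globin copies that can share reads, at means of 21900 and 9100 CPM. Homeostatic genes took 1.96%, 0.949% and 1.79%, so IRF8KO 2 was lowest in homeostatic genes and highest in red cell genes. The part of red cell RNA in that library's low levels was not tested. Monocyte genes took 0.631% to 1.55% of the IRF8KO libraries, with Chil3 the highest and Ly6c2 at 774, 469 and 258 CPM and without a count in WT, while the monocyte chemokine receptor gene Ccr2 had means of 1.54 CPM in WT and 0.0427 CPM in IRF8KO. Border macrophage genes took 0.026% to 0.0319% in WT and 0.126% to 0.149% in IRF8KO, led by Clec12a (472, 434 and 418 CPM), Pf4 (348, 292 and 385 CPM) and Ms4a7 (307, 234 and 209 CPM), while Cbr2, Cd209f, Cd209b, Folr2 and Ccl8 had no count in IRF8KO. Stab1, the only member of that list at 5 CPM or more in WT, went the other way. It was called lower, with means of 219 CPM in WT and 62.4 CPM in IRF8KO. Pf4 was also listed for platelets and megakaryocytes.

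Neural transcripts were present too. Oligodendrocyte genes took 1.14%, 0.885% and 0.787% of the IRF8KO libraries (0.0324% to 0.0364% in WT), with Mobp at 1660, 2040 and 1030 CPM. Astrocyte genes took 0.415%, 0.349% and 0.355% (0.0217% to 0.0226% in WT), with Clu at 716, 518 and 498 CPM, while Slc1a3 was only moderately higher (173, 153 and 147 CPM against 282, 492 and 204 CPM). The call on Slc1a3 was lost without WT 1, WT 2, WT 3, IRF8KO 1 or IRF8KO 2 (0.50 to 1.02). Neuron genes took 0.0782%, 0.2% and 0.377% (0.00102% to 0.00132% in WT), with Snap25 at 332, 1300 and 1930 CPM, Syt1 at 47.7, 241 and 201 CPM and Nefl at 64.8, 218 and 207 CPM, all lowest in IRF8KO 1. Ptprz1 of oligodendrocyte precursors was at 66.1, 53.6 and 85.2 CPM, and Ttr of the choroid plexus at 92.9, 374 and 352 CPM.

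Lists of other blood lineages and of endothelium held genes that were present in the WT sort. Siglech, given above among the homeostatic genes, made up most of the dendritic cell list in WT, and the dendritic cell genes Xcr1 and Clec9a were at means of 0.78 and 0.102 CPM in WT and without a count in IRF8KO. Cd24a of the same list, which neutrophil precursors and red cells share, went from 0.307, 0 and 0 CPM in WT to 564, 373 and 249 CPM. The 4 endothelial genes at 5 CPM or more in WT were not called, all in the lower direction. The 5 endothelial genes called higher all lay below that limit, and none was called lower. A gene with few WT counts can enter the test only by being higher in another group. The endothelial list took 0.0756% to 0.0845% of counts in WT and 0.0369% to 0.0603% in IRF8KO. The tight junction gene Cldn5 had a mean of 12.2 CPM in IRF8KO and no count in WT. Of the haematopoietic progenitor genes, Cd34, the most abundant in WT, fell from 473, 405 and 377 CPM to 117, 85.2 and 76.3 CPM. Another 2 lay below the limit and were called higher, with the same restriction on entry to the test. One of these, the factor gene Myb, was at 0.154, 0.971 and 0 CPM against 62.7, 8.27 and 0 CPM. B cell genes varied from 0.0132% to 0.202% in IRF8KO around 0.118% to 0.127% in WT, as did Ighm (657, 616 and 597 CPM against 1060, 121 and 270 CPM). T and NK cell genes took at most 0.0234%, led by Nkg7 (107, 42.1 and 47 CPM, none in WT), and Cd4 and Cd8a had no count in any of the 6 libraries. Siglecf, listed for eosinophils but present at 36.7, 40.8 and 29.2 CPM in the WT libraries, had a count in 1 IRF8KO library only, a ratio of 811 between pooled counts (95% counting interval 145 to 32100). The part of these cells in the changes of other genes was not tested.

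**Figure D4:**
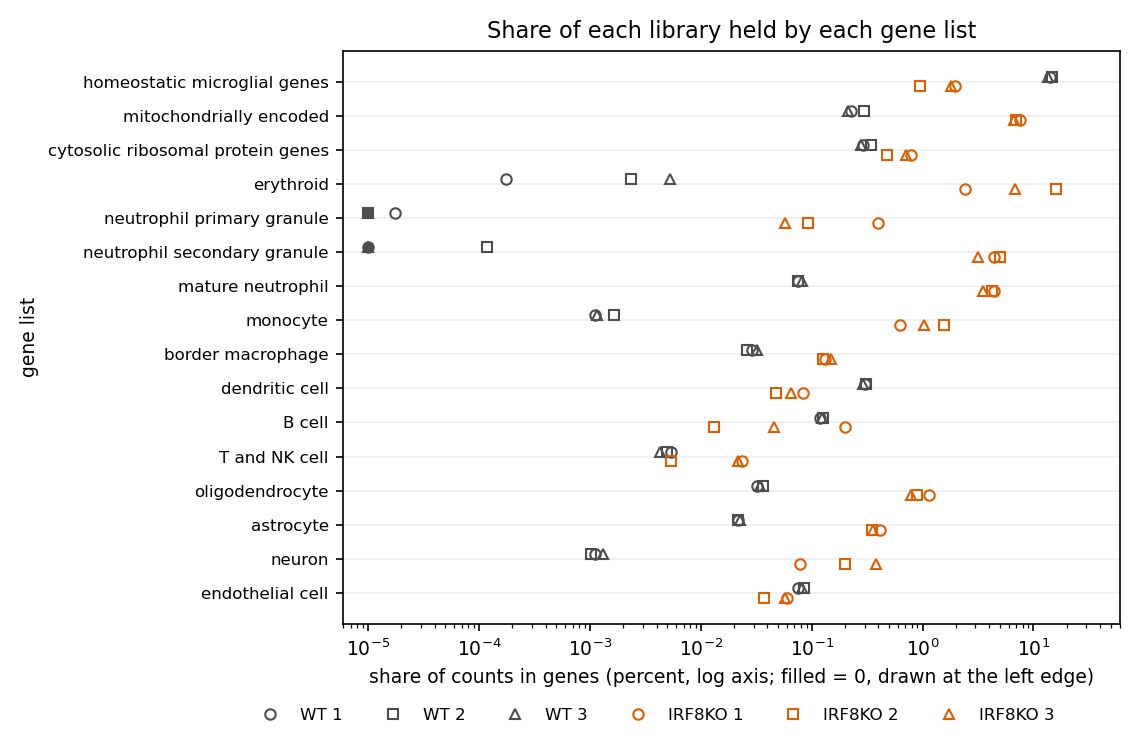
Percent of counts in genes (log axis) held by each gene list in each library; WT in grey, IRF8KO in orange, one symbol per replicate, filled where the share is 0. Homeostatic genes take 13.5% or more in WT and 1.96% or less in IRF8KO, while the red cell, neutrophil and neural lists are higher in every IRF8KO library than in any WT library.

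The effect of Irf8 loss was set beside the same contrast in 5xFAD mice, a model of amyloid deposition whose transgenes are driven by a neuronal promoter. The difference between the effects, tested as an interaction over the 12 libraries, was called for 61 of 9363 genes (0.652%), but this count depended on the processing: it was 1 with the sex score, 5, 4 and 5 without WT 1, 2 and 3, and 107 to 167 without 1 IRF8KO library. Apoe had the larger rise without 5xFAD: it was already at 4530, 5290 and 9170 CPM in 5xFAD and at 37000, 32500 and 47800 CPM in 5xFAD/IRF8KO, so that the log2 fold change was 2.63 there against 6.43 here (difference -3.80, SE 0.47, adjusted p = 0.0113). Cst7 turned direction: it stood at 247, 568 and 865 CPM in 5xFAD and at 228, 183 and 142 CPM in 5xFAD/IRF8KO, a fold change of -1.60 against 3.75. For both genes WT was the lowest group. Tlr3 was nearly absent in IRF8KO but stood at 29.5, 22.6 and 16.9 CPM in 5xFAD/IRF8KO, against 77.7, 57.3 and 64.2 CPM in 5xFAD. Hspa1b was at 2.55, 1.32 and 3.62 CPM in 5xFAD and at 16.7, 4.17 and 69.1 CPM in 5xFAD/IRF8KO, and WT was the highest of the 4 groups. Fos, named after its values were seen, was not called here (120, 40.3 and 30.4 CPM against 118, 71.9 and 71.4 CPM) and rose within 5xFAD from 2.18, 0.942 and 1.55 CPM to 240, 249 and 102 CPM.

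**Figure D5:**
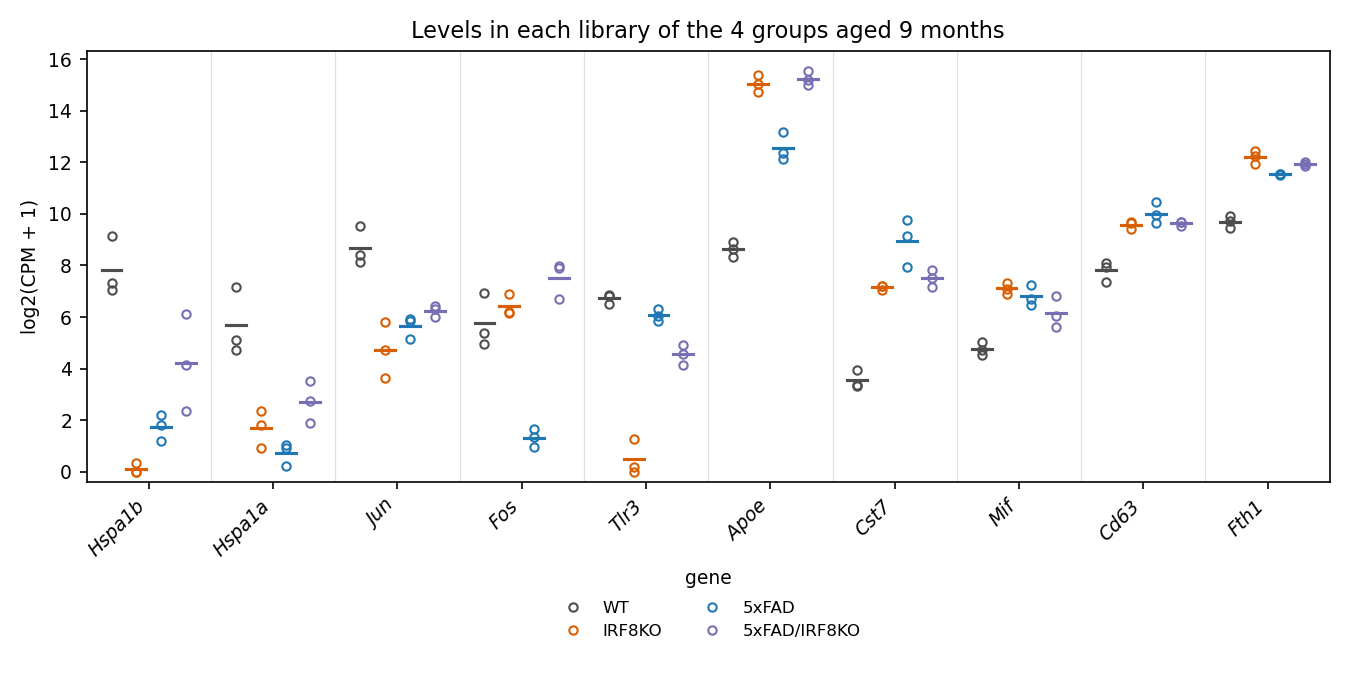
Levels as log2(CPM + 1) in each library of the 4 groups aged 9 months for 10 genes whose Irf8 effect differed with and without 5xFAD; circles are libraries and bars are means. Cst7 is lowest in WT, and Hspa1b, Hspa1a and Jun are highest in WT.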

How the data were processed

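Libraries were made from sorted microglia with SMART-Seq cDNA amplification and Nextera XT, per the labels' protocols. The authors deposited raw counts per gene for each library, in the layout of STAR gene counts with summary lines, which were left out of library sizes. The submitters' processing notes name mm10, bcl2fastq, STAR 2.5.2b, Picard 2.17.11, Subread and featureCounts, without their order. The column that ignores strand was used. Of 54146 gene identifiers, 52480 matched GENCODE M21 with their version, 54079 without it, and 67 were not found.

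Counts were filtered with filterByExpr, scaled with TMM and fitted with edgeR 4.0.16 (R 4.3.3, quasi-likelihood test) over the 12 libraries aged 9 months, and genes with a Benjamini-Hochberg adjusted p under 0.05 are called. CPM use the TMM library sizes. Each SE is the absolute log2 fold change over the square root of the test's F statistic, and the 95% intervals of the log2 fold change were built from it. Counting intervals are exact at 95%. The code was tested on simulated data. Alternatives used limma 3.58.1 and DESeq2 1.42.0, other scalings and filters, thinning to 605376 counts, a sex score, a replicate block and each library left out. Replicate numbers did not pair the libraries: deviations of libraries with the same number correlated at -0.0126, 0.00933 and 0.0102. No 2 libraries held the same counts.

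Named genes were Irf8, Batf3, the 12 largest falls and rises at 5 CPM or more in WT, the 15 genes with the highest lowest-library level among those with a summed WT count of 3 or less, 6 abundant genes with an interval within -1 to 1, and the most abundant or most changed members of each list. Those without a result of their own are covered by their list's counts, and some genes named by the rule are not reported here. The genes Tmem119, Cx3cr1, Gpr34, Spi1, Cst7, Fth1, H2-Ab1, Cybb and Fos were added after their values were seen. All members and lists were chosen with earlier results of these data known.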

Additional observations from a re-analysis of the deposited data

Results flagged for a closer look

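For 10 named genes the effect of Irf8 loss differed between mice with and without 5xFAD by the interaction test of edgeR's quasi-likelihood model (Benjamini-Hochberg adjusted p under 0.05). The difference, the log2 fold change within 5xFAD minus that without, was 15.01 for Hspa1b, 7.91 for Hspa1a, 4.46 for Jun and 6.49 for Fos. It was 6.05 for Tlr3, -3.80 for Apoe and -5.35 for Cst7. It was -2.15 for Cd63, -2.98 for Mif and -2.10 for Fth1. Hspa1b was near 0 in IRF8KO, so the size of its difference depends on the prior count and is no bound. Few such calls were made with the sex score (1 gene) or without a WT library (4 or 5 genes).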

How the results depend on the processing

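Irf8 and Batf3 stayed called in every alternative, with log2 fold changes from -3.89 to -2.68 for Irf8 when a library was left out and fitted values from -10.28 to -10.03 for Batf3. The 4136 genes called became 6836 with all 33 libraries in one model, 2201 with the sex score and 2266 to 4126 with a library left out. At 5 CPM or more in WT, the 1018 lower genes became 1631, 524 and 636 to 1308 in the same fits, and the 1052 higher genes 1648, 613 and 602 to 923, or 693 at 20 CPM or more. Without the low-count filter, 715 were higher and 1233 lower (36.7% higher). With the replicate block, although the numbers do not pair the libraries, 3407 genes were called, 894 higher and 952 lower at 5 CPM or more. The 61 genes of the interaction with 5xFAD became 890 with all 33 libraries, 37 with scaling over genes at 5 CPM or more in WT, 216 without the filter, 9 with the replicate block, 1 with the sex score, 4 to 167 with a library left out, 11 with limma voom and 801 with DESeq2. The sign turned only for named genes that were not called: B2m (0.01 with all 33 libraries, 0.08 with scaling over genes at 5 CPM or more), Cdc42 (-0.14 without WT 3, -0.15 without IRF8KO 1, -0.01 without IRF8KO 2, -0.04 with limma voom, -0.15 to 0.20 with a library left out), Hspa5 (0.04 with the sex score), Tyrobp (-0.04 without IRF8KO 1, up to 0.55 without another library) and H2-D1 (-0.06 and up to 0.72 likewise). With the sex score, 25 named results lost their call, and the cause of these shifts was not tested. Beside the losses with the sex score given above, they included Ccl6, H2-Ob, H2-Q6, Mef2c, Plin3, Slc1a3 and Srebf1. The shallowest library, WT 3 with 605376 counts, limits what can be seen of low genes in WT.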
